A study of Mus musculus with 21 samples.

Results

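H2-Aa, H2-Ab1, H2-Eb1, Cd74, Ciita, H2-DMa and H2-DMb1 encode the central parts of the MHC class II presentation pathway. The 7 genes were taken by symbol after the Ensembl identifiers of the deposited table had been matched to GENCODE M21, and they were 7 of 45706 gene identifiers. All 7 passed the filter of at least 5 counts over all libraries, which left 23815 genes for testing. They were chosen by name, with no threshold on a measured value.

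An MHC class II molecule is an alpha chain paired with a beta chain that holds peptides from the endosome for recognition by CD4+ T cells. In mice of the C57BL/6 strain H2-Aa and H2-Ab1 encode the pair called I-A, whereas H2-Eb1 encodes a beta chain whose alpha chain is not made in this strain. Cd74, the invariant chain, blocks the groove of new class II molecules and escorts them to the endosome. H2-DMa and H2-DMb1 form H2-DM, which exchanges the last fragment of Cd74 for peptides, and H2-O, formed by H2-Oa and H2-Ob, restrains H2-DM. Ciita is the co-activator that sets class II transcription and that interferon gamma induces through Jak1, Jak2 and Irf1. In the uninjured brain class II is carried mainly by macrophages and dendritic cells of the borders, and microglia carry little of it.

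RNA was measured in 21 libraries of myeloid cells sorted from brains of male mice on the C57BL/6 background, 17 to 24 weeks old, with 7 groups of 3 libraries. Traumatic brain injury was modelled by controlled cortical impact (CCI), and cells came from a 1 mm block of tissue around the lesion. Microglia were 40000 cells with low CD45 and CD11b, and they came from wildtype (WT) sham controls, from WT mice 1 d and 7 d post-CCI, and from Fgg γ390–396A mice 1 d and 7 d post-CCI. Infiltrating myeloid cells were 25000 cells with high CD45 and CD11b, which the labels call macrophages, and they came from WT and Fgg γ390–396A mice 1 d post-CCI. Fgg γ390–396A mice carry a knock-in in all cells that leaves fibrinogen able to clot but removes its binding motif for the integrin CD11b/CD18. The skull of sham controls was opened under anaesthesia but not struck, and all were WT, so that genotype and injury cannot be told apart when Fgg γ390–396A libraries are compared with them. Each library pooled 2 brains at random, and p-values therefore measure the spread between pooled libraries.

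Library totals ranged from 18896963 to 51875790 scaled counts, and ribosomal RNA took 43% to 58.5% of them. Levels are given as CPM, counts scaled to a common library size after TMM normalization. A total of 3 counts, the limit that a count of 0 allows, was 0.0448 to 0.158 CPM and covers counting error only. Summed microglial markers (Tmem119, P2ry12 and 6 others) ranged from 2740 to 11200 CPM in the 15 microglia libraries and from 345 to 963 CPM in the 6 infiltrating libraries. Summed monocyte markers (Ly6c2, Ccr2 and 4 others) were 5.03 to 59.1 CPM and 755 to 1110 CPM, and summed neutrophil markers (S100a8, Ly6g and 5 others) were 105 to 843 CPM and 2640 to 12900 CPM. Lymphocyte markers were low in the T and NK cell sum (0 to 2.03 CPM in microglia, 5.14 to 13.1 CPM in infiltrating cells), and the B cell sum (64.1 to 378 and 30 to 72.1 CPM) was mostly Ighm. The infiltrating gate thus held markers of several cell types, and in bulk RNA fewer cells of a type and less RNA per cell cannot be told apart.

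Class II promoters carry a conserved arrangement of boxes upstream of the start, among them an X1 box bound by the RFX complex and a Y box bound by NF-Y, on which Ciita assembles. RefSeq promoter sequences (GRCm38.p6) were at hand for 4 of the 7 genes: H2-Aa, H2-Eb1, H2-DMa and H2-DMb1. The 120 bases before the start are shown for H2-Aa and H2-Eb1, which among these 4 genes differed most between cell types, and for H2-Ob, which fell at 1 d post-CCI, as described after the microglial comparisons. Each is written 5′ to 3′ on the strand of its gene, with the letters CTNGNAAC (X1) and GATTGG (Y) in capitals.
H2-Aa: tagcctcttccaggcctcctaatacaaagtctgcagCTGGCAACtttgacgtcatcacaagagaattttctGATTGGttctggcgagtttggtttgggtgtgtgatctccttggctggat
H2-Eb1: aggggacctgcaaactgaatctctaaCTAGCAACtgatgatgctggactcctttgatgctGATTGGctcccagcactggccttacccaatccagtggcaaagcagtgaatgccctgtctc
H2-Ob: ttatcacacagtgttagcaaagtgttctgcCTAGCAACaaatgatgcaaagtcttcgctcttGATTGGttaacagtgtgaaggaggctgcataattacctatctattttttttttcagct

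The sequences are chr17:34287824-34287943 (minus strand), chr17:34305747-34305866 (plus strand) and chr17:34238785-34238904 (plus strand). The X1 letters began at −84, −94 and −90 from the start and the Y letters at −49, −60 and −58, with 27, 26 and 24 bases between them. H2-DMb1 held the same pair at −97 and −62, with 27 bases between. Neither start site of H2-DMa held the pair, and H2-Oa and H2-DMb2 held the Y letters without X1. The letters were chosen after these sequences had been seen and were searched on both strands, with a Y match at most 40 bases after X1. Of 32851 mouse promoter windows of 300 bases, 13.2% held X1, 16.1% held Y and 52, or 0.158%, held the pair. A match describes the letters of a window and is not evidence of binding.

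H2-Aa (ENSMUSG00000036594, 17:34282744-34287823, minus strand), H2-Ab1 (ENSMUSG00000073421, 17:34257689-34269419, plus strand) and H2-Eb1 (ENSMUSG00000060586, 17:34305867-34316674, plus strand) lie together on GRCm38. H2-DMa (ENSMUSG00000037649, 17:34119541-34139101, plus strand) and H2-DMb1 (ENSMUSG00000079547, 17:34153072-34160230, plus strand) lie in the same region of chromosome 17. Cd74 (ENSMUSG00000024610, 18:60803848-60812652, plus strand) and Ciita (ENSMUSG00000022504, 16:10480059-10528418, plus strand) lie elsewhere. H2-DMb1 has a near-identical copy, H2-DMb2, so that the division of reads between the pair is uncertain. The library kit did not mark strand, and H2-DMa shares 360 of its 3448 exonic bases with the antisense gene Brd2, as Ciita shares 329 of 9535 with Dexi.

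**Figure D1:**
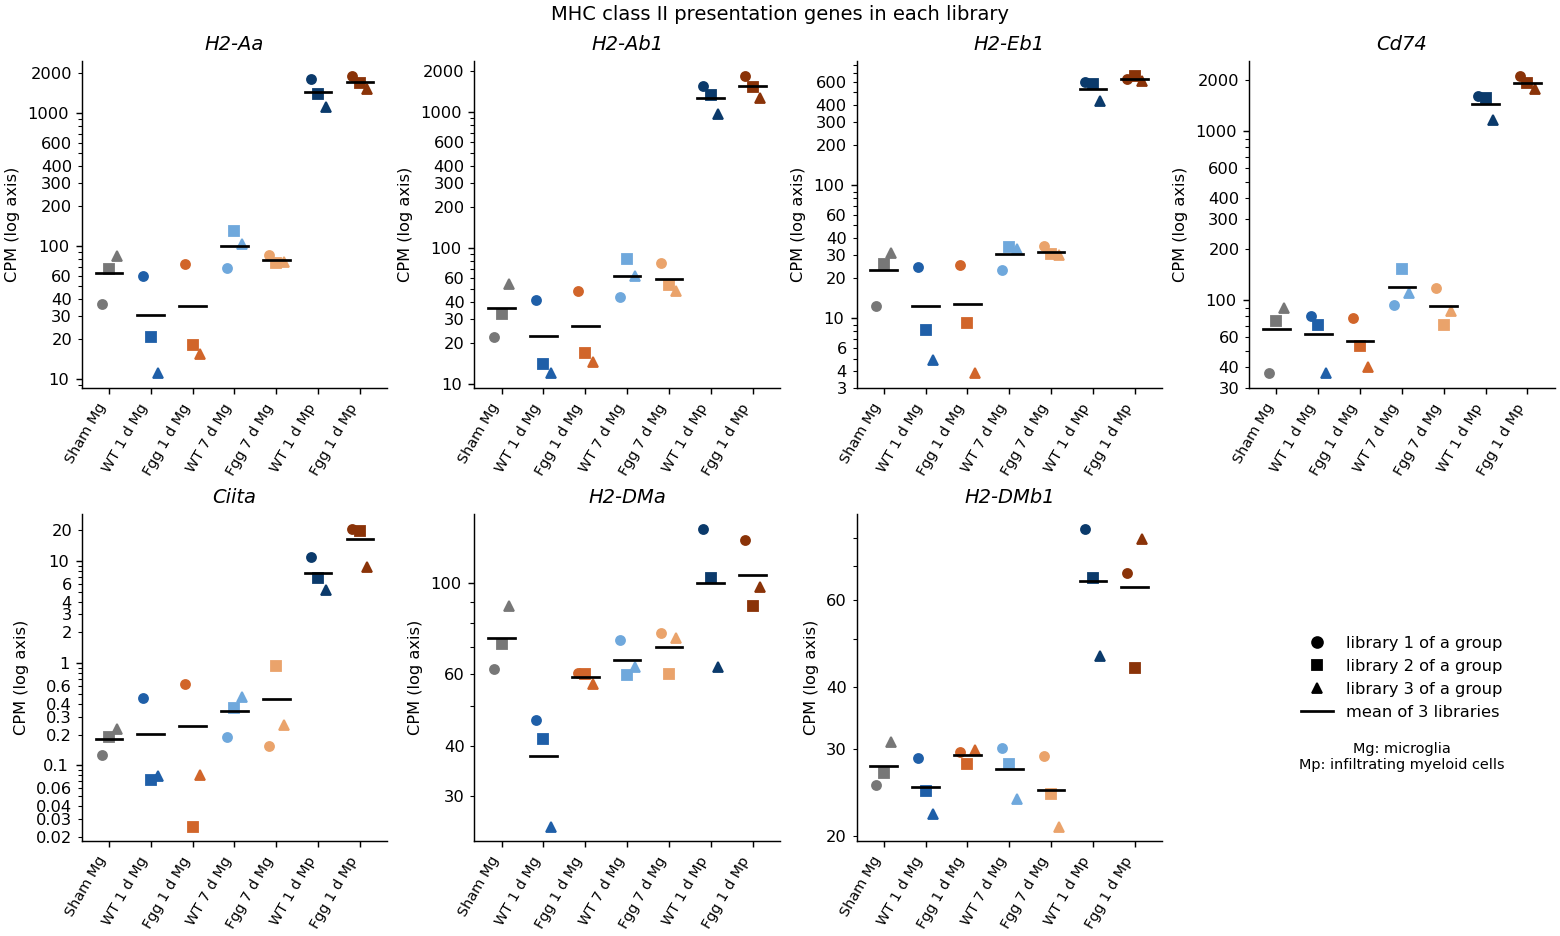
Level of each of the 7 class II genes in CPM (log axis) in each of the 21 libraries, by group, with each point a library and each bar a group mean. The chains, Cd74 and Ciita stand far higher in the 6 infiltrating libraries than in the 15 microglia libraries, H2-DMb1 less so, and H2-DMa overlaps; in both 1 d microglia groups 1 library lies above the other 2 for H2-Aa, H2-Ab1, H2-Eb1 and Ciita.

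Among microglia H2-Aa averaged 62.6 ± 23.9 CPM (SD, n = 3) in sham, 30.4 ± 25.6 in WT and 35.5 ± 32.7 in Fgg γ390–396A mice at 1 d. At 7 d its means were 101 ± 31.4 and 78.5 ± 6.53, beside 1440 ± 350 and 1700 ± 190 in infiltrating cells. Ordered by mean, H2-Aa and H2-Ab1 ran from WT at 1 d through Fgg γ390–396A at 1 d, sham and Fgg γ390–396A at 7 d to WT at 7 d, and H2-Eb1 followed with the last 2 exchanged. Neighbouring microglial groups, each gene in its own order, overlapped for all 3 chains, for Cd74, for Ciita and for H2-DMb1. H2-DMa alone of the 7 had a microglial group apart from its neighbour, with WT at 1 d (37.7 ± 11 CPM) below Fgg γ390–396A at 1 d (59.0 ± 2.01 CPM). The infiltrating groups came last for every gene.

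The comparison of infiltrating myeloid cells with microglia at 1 d post-CCI gave the largest differences. The peptide-binding chains and Cd74 were 23 to 57.8 times as high in infiltrating cells, whereas both H2-DM genes were less than 3 times as high. H2-Aa was 1800, 1400 and 1110 CPM in libraries 1, 2 and 3 of WT infiltrating cells and 59.4, 20.6 and 11 CPM in those of WT microglia. H2-Ab1 was 1540, 1320 and 955 CPM against 41.6, 14.1 and 12 CPM. Each infiltrating library stood above each microglia library by more than the whole range within either group. On the log2 scale H2-Aa differed by 5.57 (SE 0.65, adjusted p = 5.7e-06, quasi-likelihood test of edgeR, adjusted by Benjamini-Hochberg) and H2-Ab1 by 5.81 (SE 0.57, adjusted p = 8.8e-07, the same test), which is 47.4-fold and 56.3-fold. A gene was called here at an adjusted p under 0.05 and an absolute log2 fold change above 1.

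The same was seen for the other chain, for Cd74 and for Ciita. H2-Eb1 was 600, 576 and 429 CPM in WT infiltrating cells against 24.3, 8.14 and 4.84 CPM in WT microglia, a difference of 5.43 on the log2 scale (SE 0.63, adjusted p = 5.4e-06, edgeR). Cd74 was 1600, 1570 and 1160 CPM against 79.9, 71.3 and 36.7 CPM, or 4.53 (SE 0.38, adjusted p = 2.2e-07, edgeR) and 23-fold. Ciita, the co-activator, was far less abundant than the genes it controls. It was 10.8, 6.74 and 5.18 CPM in WT infiltrating cells and 0.458, 0.0724 and 0.0781 CPM in WT microglia, of which the latter 2 rest on 2 counts each. The fitted difference for Ciita was 5.20 (SE 0.91, adjusted p = 0.00046, edgeR) and its size is uncertain at such counts.

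H2-DMa, the alpha chain of H2-DM, was 136, 103 and 62.4 CPM in WT infiltrating cells against 46.1, 41.6 and 25.3 CPM in WT microglia. H2-DMb1 was 83.3, 66.4 and 46.2 CPM against 28.7, 24.6 and 22.2 CPM. The groups did not overlap for either gene, and the differences were 1.41 for H2-DMa (95% interval 0.89 to 1.94, adjusted p = 5e-04, edgeR) and 1.38 for H2-DMb1 (0.91 to 1.84, adjusted p = 2e-04, edgeR). Both intervals lie below those of the 5 other genes, the lowest of which begins at 3.29 for Ciita. The infiltrating libraries of H2-DMa overlapped sham microglia, which held 61.5, 70.9 and 88.0 CPM. Brd2, the antisense neighbour of H2-DMa, was also higher in infiltrating cells (0.94, adjusted p = 0.00025, edgeR), and its part in the H2-DMa difference was not tested.

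Infiltrating cells of Fgg γ390–396A mice held 1520 to 1900 CPM of H2-Aa, 1270 to 1830 CPM of H2-Ab1, 87.9 to 128 CPM of H2-DMa and 43.7 to 79.5 CPM of H2-DMb1. In these mice H2-Aa differed by 5.58, H2-Ab1 by 5.85, H2-Eb1 by 5.62, Cd74 by 5.08 and Ciita by 5.90 between infiltrating cells and microglia (adjusted p from 5.6e-08 to 1e-04, edgeR). H2-DMb1 differed by 1.13 (SE 0.22, adjusted p = 0.00097, edgeR), and without library 3 of the infiltrating cells by 0.94, which misses the bar. H2-DMa differed by 0.83 (SE 0.25, adjusted p = 0.021, edgeR), under the bar of 1. Thus 7 of 7 genes were called higher in WT and 6 of 7 in Fgg γ390–396A mice, where 5.61% and 6.96% of all genes tested were called higher and 11.9% and 16.7% in either direction. All 7 were above microglia in every infiltrating library in both genotypes, a separation in either direction that 29.2% and 32.1% of all genes showed. The median over the 7 genes was 5.20 in WT and 5.58 in Fgg γ390–396A mice, beside medians over all genes of 0 and -0.13. With the marker sums of microglia, monocytes and neutrophils all differing between the gates, and those of dendritic cells (Flt3, Zbtb46 and 5 others) at 2.57 to 15 CPM in microglia and 61.4 to 145 CPM in infiltrating cells, the part of each cell type in these differences was not tested.

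**Figure D2:**
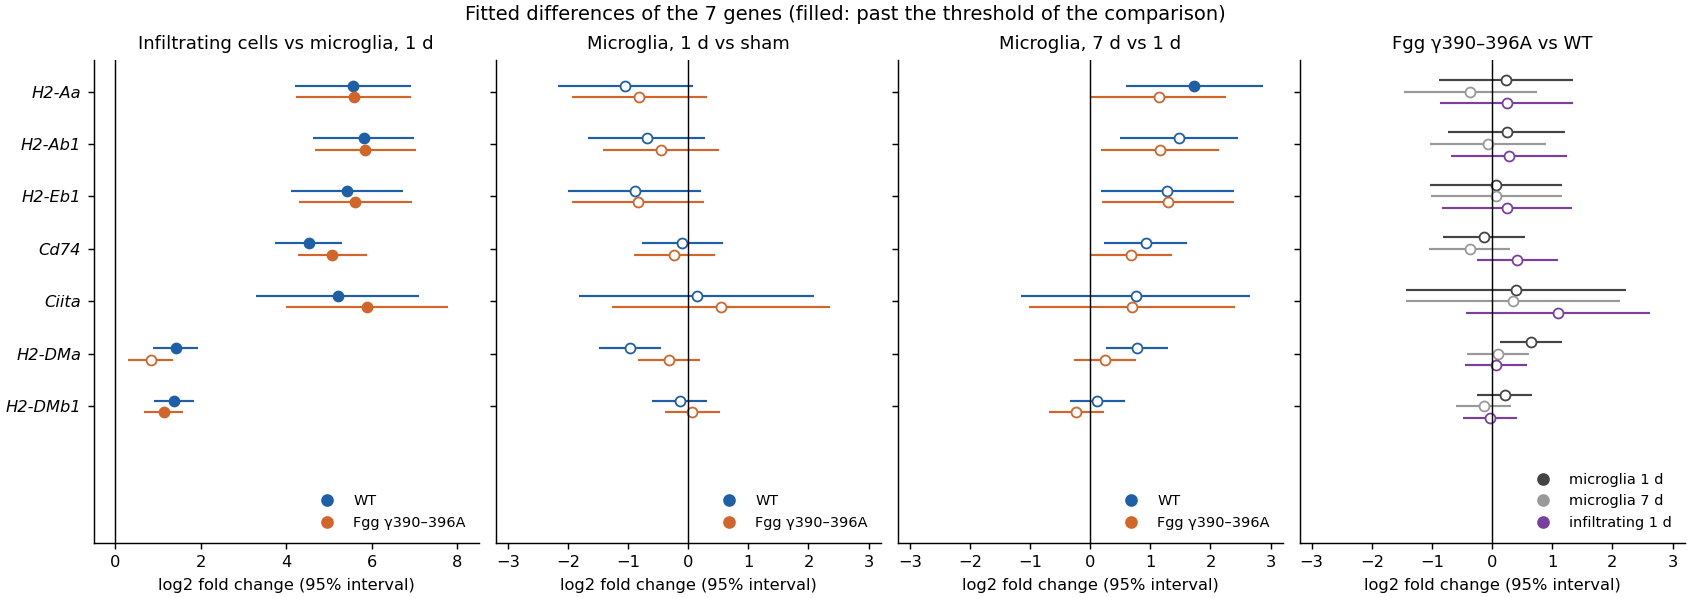
Log2 fold change of each class II gene in the pairwise comparisons, with bars for 95% confidence intervals from the edgeR fit and filled points for genes called. The infiltrating cell comparisons lie near 5 for 5 genes and near 1 for H2-DMa and H2-DMb1, and the intervals of most microglial comparisons include 0.

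Because gene length had been divided out of the deposited counts, levels of different genes in a library can be set side by side. H2-Ab1 was 11.3 to 17.4 times as abundant as H2-DMa in infiltrating libraries, but 0.258 to 1.39 times in microglia libraries. The 2 ranges did not overlap. The ratio of Cd74 to H2-Ab1 was 1.04 to 1.4 in infiltrating cells and ran from 1.33 to 5.04 in microglia, where it was 1.65 to 2.27 in sham, 1.92 to 5.04 in WT at 1 d and 1.62 to 3.13 in Fgg γ390–396A mice at 1 d. H2-Aa and H2-Ab1, which pair in the I-A molecule, were nearly level in infiltrating cells, with ratios of 1.04 to 1.2, and varied from 0.916 to 2.04 in microglia. H2-Eb1 was present at 0.348 to 0.478 of the level of H2-Ab1 in infiltrating cells, although H2-Ea-ps, the locus of its alpha chain partner, was at 0 in all 21 libraries. These ratios describe the libraries and were not tested.

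**Figure D3:**
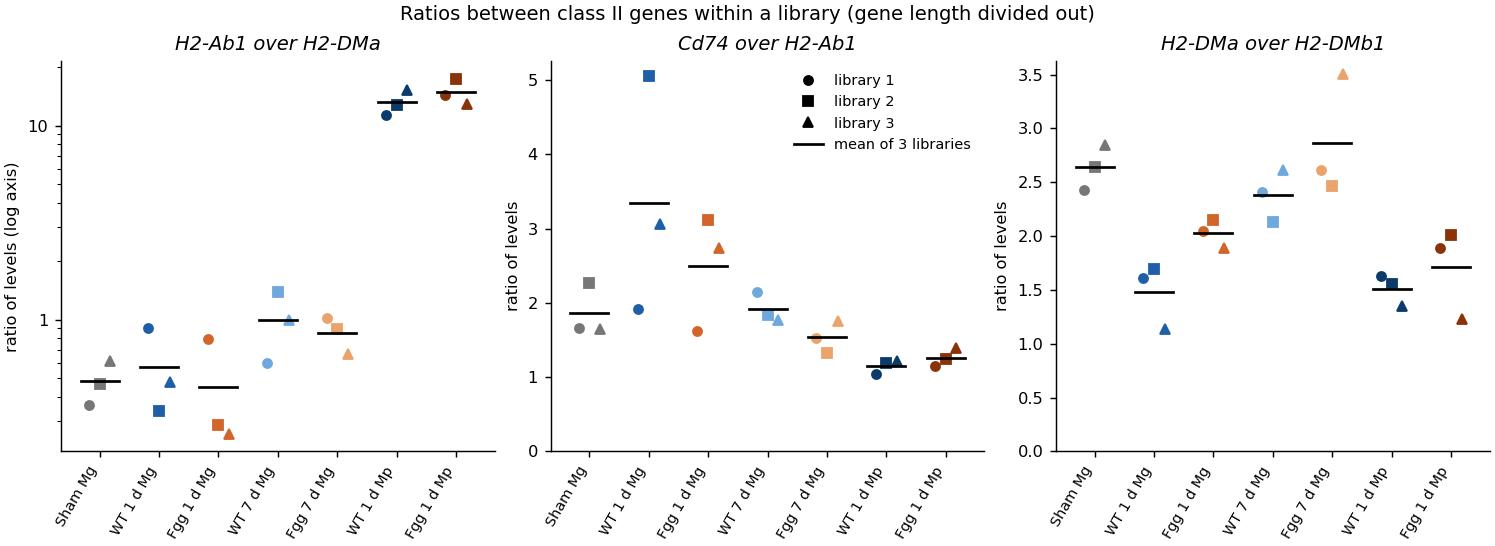
Ratios between class II genes in each library, by group, with each point a library (log axis for H2-Ab1 over H2-DMa only). H2-Ab1 over H2-DMa separates the infiltrating libraries (11.3 to 17.4) from the microglia libraries (0.258 to 1.39), whereas Cd74 over H2-Ab1 is highest in 1 d microglia.

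Among microglia, none of the 7 genes was called between 1 d post-CCI and sham in either genotype, at an adjusted p under 0.05 and an absolute log2 fold change above 1.5. By this rule edgeR called 7.34% of all genes in WT and 3.5% in Fgg γ390–396A mice, and 6592 and 4862 of 23815 genes had an unadjusted p under 0.05. DESeq2 likewise called 0 of the 7 genes in both. The median over the 7 genes was -0.69 in WT and -0.32 in Fgg γ390–396A mice, where the medians over all genes were 0.

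H2-DMa was the gene of the 7 with the clearest difference. It was 61.5, 70.9 and 88.0 CPM in sham and 46.1, 41.6 and 25.3 CPM in WT microglia at 1 d, so that all 3 injured libraries lay below all 3 sham libraries, as was the case in one direction or the other for 33.8% of all genes. Its difference of -0.97 (SE 0.25, adjusted p = 0.0095, quasi-likelihood test of edgeR, adjusted by Benjamini-Hochberg) passed on p and missed the bar on size. In Fgg γ390–396A mice H2-DMa was 60.3, 59.9 and 56.6 CPM, again below sham in every library (29.0% of all genes did not overlap) but by -0.32 (adjusted p = 0.50, edgeR). Its partner H2-DMb1 was 25.3, 26.8 and 30.9 CPM in sham, 28.7, 24.6 and 22.2 CPM in WT and 29.5, 27.9 and 29.9 CPM in Fgg γ390–396A mice at 1 d, and the groups overlapped. The ratio of H2-DMa to H2-DMb1 was 2.43 to 2.85 in sham, 1.14 to 1.69 in WT at 1 d and 1.9 to 2.15 in Fgg γ390–396A mice at 1 d.

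The chains were uneven between libraries at 1 d. H2-Aa was 36.6, 67.5 and 83.6 CPM in sham, 59.4, 20.6 and 11 CPM in WT and 73.2, 18 and 15.3 CPM in Fgg γ390–396A mice. H2-Eb1 was 12.4, 25.6 and 31.1 CPM in sham, 24.3, 8.14 and 4.84 CPM in WT and 25.4, 9.26 and 3.86 CPM in Fgg γ390–396A mice. In both genotypes library 1 lay within the range of sham, and libraries 2 and 3 lay below every sham library. H2-Ab1 did likewise, at 22.2, 33.0 and 54.0 CPM in sham, 41.6, 14.1 and 12 CPM in WT and 48.1, 17.1 and 14.6 CPM in Fgg γ390–396A mice. The differences from sham were -1.04 and -0.81 for H2-Aa, -0.89 and -0.83 for H2-Eb1 and -0.69 and -0.45 for H2-Ab1 in WT and Fgg γ390–396A mice (adjusted p from 0.22 to 0.65, edgeR).

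Other values moved with library 1. Its summed monocyte markers were 59.1 CPM in WT and 53.3 CPM in Fgg γ390–396A mice, and 5.03 to 12.6 CPM in the 4 other microglia libraries of 1 d, and Ly6c2, the defining marker of classical monocytes, was 5.34 and 9.07 CPM against 0.109 to 0.507 CPM. Summed neutrophil markers were 834 CPM in library 1 against 170 and 559 CPM in WT, and 423 CPM against 129 and 105 CPM in Fgg γ390–396A mice. Library 1 also had the highest microglial marker sum of its group, 4230 CPM against 3860 and 2740 CPM in WT and 6230 CPM against 4850 and 4810 CPM in Fgg γ390–396A mice. Its share of ribosomal RNA was the lowest, 50.6% against 57.9% and 58.5% in WT and 47.1% against 49.4% and 52.4% in Fgg γ390–396A mice. Dendritic cell markers summed to 9.08 and 8.25 CPM in library 1 and 2.57 to 6.69 CPM in the others. The sums of H2-Aa, H2-Ab1, H2-Eb1 and Cd74 were 205 and 225 CPM in library 1 and 64.6 to 114 CPM in the others. Border macrophage markers (Mrc1, Pf4 and 5 others) did not follow it in WT, at 191 CPM in library 1 and 128 and 230 CPM in libraries 2 and 3, and were 148, 121 and 108 CPM in Fgg γ390–396A mice. Among the sham libraries the one with the lowest class II sum, 108 CPM, had the lowest border macrophage sum, 4.91 CPM, and the one with the highest, 258 CPM, had the highest, 249 CPM. The sham libraries ran in the same order for monocyte markers (5.74, 5.96 and 39.0 CPM), neutrophil markers (160, 243 and 787 CPM) and dendritic cell markers (5.74, 9.8 and 13 CPM). B cell and microglial sums did so as well, and the T and NK cell sum did not. The part of these cell types and of ribosomal RNA in the class II levels was not tested.

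Library 1 of both 1 d microglia groups was then left out, a choice made after the values were seen, because its class II level stood apart. The adjusted p-values without it rest on that choice and are a description only. H2-Aa and H2-Eb1 were called lower than sham. H2-Aa then differed by -1.98 in WT (adjusted p = 0.00053, edgeR) and -1.91 in Fgg γ390–396A mice (adjusted p = 0.001, edgeR). H2-Eb1 differed by -1.83 and -1.80 (adjusted p = 0.002 and 0.0032, edgeR), and H2-Ab1 by -1.48 and -1.20, under the bar. The escort Cd74 differed less. It was 36.8, 74.9 and 89.2 CPM in sham, 79.9, 71.3 and 36.7 CPM in WT and 77.8, 53.4 and 40.1 CPM in Fgg γ390–396A mice, with differences of -0.10 and -0.23 (adjusted p = 0.95 and 0.79, edgeR) that became -0.31 and -0.52 without library 1. Ciita was 0.127 to 0.226 CPM in sham on 4 to 9 counts, and 4 of the 15 microglia libraries held 3 counts of it or fewer, so that its changes among microglia were not measurable at this depth.

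**Figure D4:**
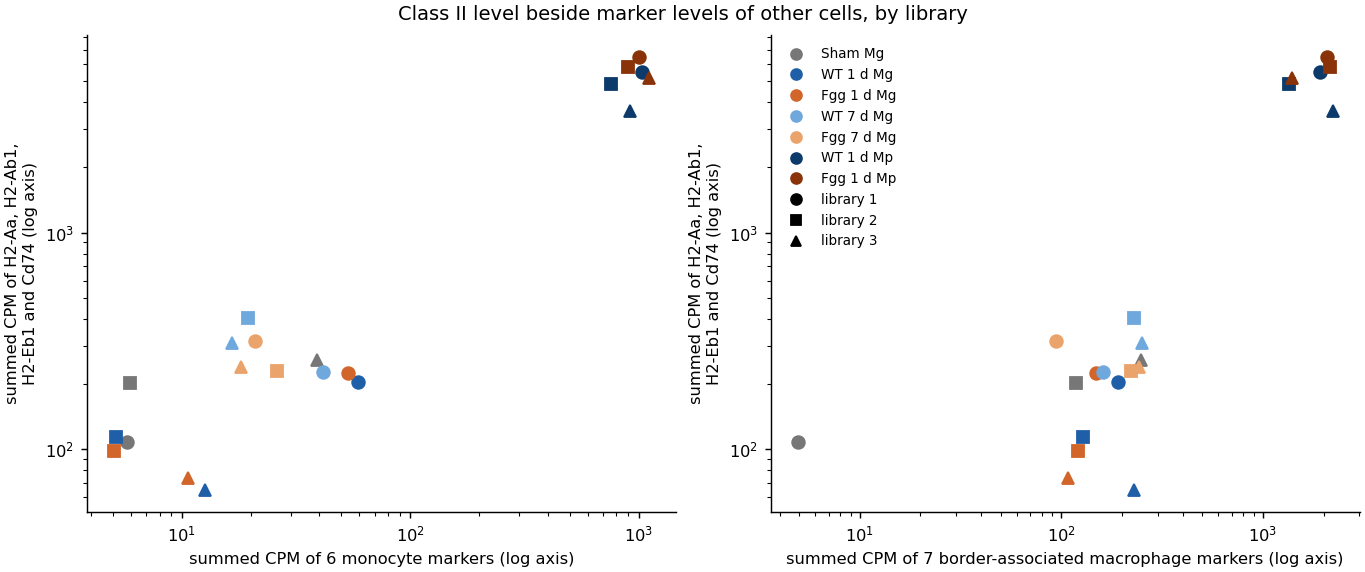
Sum of H2-Aa, H2-Ab1, H2-Eb1 and Cd74 in CPM against the sums of monocyte and border macrophage markers in CPM (log axes), with each point a library coloured by group. In 1 d microglia the library with the highest class II sum of each genotype (205 and 225 CPM) also has the highest monocyte sum (59.1 and 53.3 CPM).

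H2-Aa was higher at 7 d than at 1 d in WT microglia, whereas H2-Ab1, H2-Eb1 and Cd74 had higher means that did not pass the test. H2-Aa was 67.9, 130 and 104 CPM in WT microglia at 7 d, above every WT library of 1 d, a difference of 1.73 (SE 0.55, adjusted p = 0.049, quasi-likelihood test of edgeR, adjusted by Benjamini-Hochberg) and 3.32-fold. It was the 1 of 7 genes called at a bar of 1, where 2.67% of all genes were called higher and 7.06% in either direction. The call was lost without library 2 (1.46, adjusted p = 0.23, edgeR) or 3 (1.28, adjusted p = 0.24, edgeR) of WT at 1 d, without any 1 WT library of 7 d (adjusted p = 0.058 to 0.16, edgeR), and when the compared groups were fitted alone (adjusted p = 0.081, edgeR). H2-Ab1 was 43.5, 83.1 and 61.9 CPM, 1.48 above 1 d (SE 0.47, adjusted p = 0.052, edgeR), and with the replicate number as a block it was called as well (adjusted p = 0.023, edgeR). H2-Eb1 was 23.2, 34.3 and 33.3 CPM, a difference of 1.29 (adjusted p = 0.15, edgeR).

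Cd74 was 93.3, 153 and 110 CPM in WT microglia at 7 d, 0.92 above 1 d (SE 0.33, adjusted p = 0.084, edgeR). H2-DMa was 72.5, 59.7 and 62.2 CPM, 0.78 above 1 d (SE 0.25, adjusted p = 0.050, edgeR) and overlapping sham. H2-DMb1 held 30.1, 28.0 and 23.8 CPM and overlapped both. Ciita held 0.191, 0.366 and 0.464 CPM, which overlapped 1 d. H2-Aa, H2-Ab1, Cd74 and H2-DMa, 4 of 7 genes, lay above 1 d in every library, where 29.4% of all genes did not overlap. DESeq2 called 4 of the 7 genes in this comparison. Markers of several cell types moved in the same direction from 1 d to 7 d in WT. On the log2 scale 7 of 7 dendritic cell markers were above 0 (median 1.29, 0 called), as were 6 of 7 border macrophage markers (median 0.84, 0 called). So were 7 of 8 microglial markers (median 0.89, 4 called), 6 of 7 B cell markers (median 1.19, 1 called) and 5 of 7 neutrophil markers (median 1.44, 1 called). Monocyte markers did not, with 2 of 6 above 0 (median -0.01, 0 called). Nor did T and NK cell markers, with 3 above and 3 below 0 (median 0, 0 called). Summed dendritic cell markers were 3.83 to 9.08 CPM at 1 d and 6.88 to 15 CPM at 7 d, and border macrophage markers 128 to 230 CPM and 161 to 252 CPM. Neutrophil markers did not rise in sum, with a median of 559 CPM (170 to 834) at 1 d and 295 CPM (260 to 843) at 7 d. The part of these cell types in the class II difference was not tested.

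In Fgg γ390–396A mice H2-Aa was 86.0, 74.1 and 75.4 CPM at 7 d, H2-Ab1 was 77.0, 53.4 and 48.5 CPM and H2-Eb1 was 35.1, 30.4 and 29.8 CPM. All 3 lay above their 1 d levels in every library (27.3% of all genes did not overlap), by 1.14, 1.16 and 1.30 (adjusted p = 0.30, 0.19 and 0.20, edgeR). None of the 7 genes was called by edgeR, where 3.54% of all genes were called and 3894 had an unadjusted p under 0.05, and DESeq2 also called 0 of the 7. H2-DMa and H2-DMb1, at 69.7 ± 8.47 CPM and 24.8 ± 4.05 CPM (SD, n = 3) at 7 d, differed from 1 d by 0.24 and -0.23. Leaving out library 1 of 1 d was the only omission of 1 library that gave calls among the 7 genes here. H2-Aa then differed by 2.24 (adjusted p = 0.011, edgeR), H2-Ab1 by 1.91 (adjusted p = 0.017, edgeR) and H2-Eb1 by 2.27 (adjusted p = 0.012, edgeR). Without library 1 of WT at 1 d, the WT differences of H2-Ab1 and H2-Eb1 were 2.26 (adjusted p = 0.0034, edgeR) and 2.22 (adjusted p = 0.0096, edgeR). Both omissions took out the 1 d library with the highest class II sum of its genotype, so these p-values rest on that choice.

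Against sham, none of the 7 genes was called at 7 d in WT or in Fgg γ390–396A mice. By edgeR 2.02% and 0.663% of all genes were called, and 2783 and 1808 had an unadjusted p under 0.05, whereas DESeq2 also called 0 of the 7. Cd74 stood above sham in every WT library (20.1% of all genes did not overlap), by 0.83 (95% interval 0.14 to 1.51, adjusted p = 0.28, edgeR). In Fgg γ390–396A mice Cd74 was 118, 70.8 and 85.5 CPM, 0.45 above sham (adjusted p = 0.78, edgeR), and none of the 7 genes was clear of sham in every library (15.6% of all genes were). H2-Aa differed from sham by 0.69 in WT and 0.33 in Fgg γ390–396A mice, and H2-Ab1 by 0.79 and 0.71, with sham libraries that spanned 36.6 to 83.6 CPM and 22.2 to 54.0 CPM.

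No difference between genotypes was called for any of the 7 genes, at an adjusted p under 0.1 and an absolute log2 fold change above 1. By edgeR the share of all genes called was 0.0546% in microglia at 1 d, 0.0378% at 7 d and 0.453% in infiltrating cells, and 1209, 795 and 2749 genes had an unadjusted p under 0.05. DESeq2 called 0 of the 7 genes in each. In microglia at 1 d H2-DMa was 60.3, 59.9 and 56.6 CPM in Fgg γ390–396A mice and 46.1, 41.6 and 25.3 CPM in WT, without overlap (8.72% of all genes). The difference of 0.65 (95% interval 0.13 to 1.16, adjusted p = 0.89, edgeR) did not pass over all genes. The intervals of the other genes were wide, from -0.88 to 1.34 for H2-Aa, -0.73 to 1.21 for H2-Ab1, -1.04 to 1.16 for H2-Eb1 and -0.81 to 0.55 for Cd74. These values come from the fit without a block. H2-Ab1, H2-DMa and H2-DMb1 were higher in Fgg γ390–396A mice in 3 of 3 same-numbered pairs, and the other genes were not. The share of all genes that were so was not counted, so these pairs cannot be read as a genotype difference. With the replicate number as a block H2-Ab1 differed by 0.24 (95% interval -0.67 to 1.16), H2-DMa by 0.67 (0.18 to 1.16, adjusted p = 0.81, edgeR) and H2-DMb1 by 0.22 (-0.23 to 0.66).

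At 7 d the genotype difference was -0.36 for H2-Aa (95% interval -1.47 to 0.75), -0.08 for H2-Ab1 and -0.38 for Cd74 (-1.06 to 0.30), and all 7 genes overlapped between genotypes (11.1% of all genes did not). In infiltrating cells Cd74 was 2110, 1910 and 1770 CPM in Fgg γ390–396A mice and 1600, 1570 and 1160 CPM in WT, and H2-Eb1 was 635, 665 and 607 CPM against 600, 576 and 429 CPM. Neither gene overlapped between genotypes, as was so for 8.02% of all genes. The differences were 0.42 for Cd74 (95% interval -0.26 to 1.10, adjusted p = 0.63, edgeR) and 0.25 for H2-Eb1 (-0.83 to 1.33, adjusted p = 0.99, edgeR). Ciita was 20.5, 19.4 and 8.79 CPM against 10.8, 6.74 and 5.18 CPM, overlapping, with a difference of 1.10 (-0.43 to 2.63, adjusted p = 0.55, edgeR). H2-DMa and H2-DMb1 differed by 0.06 and -0.04.

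The difference between the genotypes' changes was tested as an interaction, called at an adjusted p under 0.1. None of the 7 genes passed for genotype by time in microglia, where edgeR called 0% of all genes with 653 at an unadjusted p under 0.05 and DESeq2 called 33, none of them among the 7. None passed for genotype by cell type at 1 d, where edgeR called 0.0462% of all genes with 1994 at an unadjusted p under 0.05 and DESeq2 called 259, none of them among the 7. The values nearest to a difference were those of H2-DMa, at -0.54 by time (95% interval -1.27 to 0.19) and -0.59 by cell type (-1.32 to 0.14).

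Of 11 other genes of class II loading and processing, 10 could be tested, and among microglia both genes of H2-O fell at 1 d post-CCI in both genotypes. H2-Oa was 20.3, 18 and 16.5 CPM in sham, 4.08, 2.06 and 1.80 CPM in WT at 1 d and 7.07, 6.62 and 5.42 CPM in Fgg γ390–396A mice at 1 d. H2-Ob was 10.6, 10.9 and 11.6 CPM in sham, 3.47, 1.77 and 2.77 CPM in WT at 1 d and 5.64, 3.40 and 2.49 CPM in Fgg γ390–396A mice at 1 d. In both genotypes all 1 d libraries lay below all sham libraries. Unlike the chains, library 1 did not overlap sham here. B cell and microglial marker sums moved with H2-O. The B cell sum was 187 to 255 CPM in sham, 64.1 to 137 CPM in WT and 151 to 173 CPM in Fgg γ390–396A mice at 1 d, and 185 to 267 CPM and 200 to 378 CPM at 7 d. The microglial sum was 10000 to 11200 CPM in sham, 2740 to 4230 CPM and 4810 to 6230 CPM at 1 d, and 5980 to 6840 CPM and 7040 to 8160 CPM at 7 d. Their part in the H2-O levels was not tested.

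H2-Oa fell by 2.79 on the log2 scale in WT (SE 0.44, adjusted p = 0.00013, edgeR) and by 1.52 in Fgg γ390–396A mice (SE 0.41, adjusted p = 0.021, edgeR), and H2-Ob fell by 2.05 (SE 0.36, adjusted p = 0.00039, edgeR) and by 1.51 (SE 0.35, adjusted p = 0.0072, edgeR). The Fgg γ390–396A falls lie at the bar of 1.5. The call of H2-Oa was lost without Fgg γ390–396A library 2 or 3 or sham library 1 or 2 (-1.54 to -1.42, adjusted p = 0.051 to 0.10, edgeR), and that of H2-Ob without Fgg γ390–396A library 2 or 3 or sham library 3 (-1.48 to -1.29, adjusted p = 0.023 to 0.055, edgeR). At 7 d H2-Oa was 19.2, 12 and 18.1 CPM and H2-Ob was 12.3, 6.71 and 10.3 CPM in WT, a rise over 1 d of 2.63 (adjusted p = 0.00046, edgeR) and 1.87 (adjusted p = 0.0017, edgeR) that held in all 15 alternatives. In Fgg γ390–396A mice H2-Ob was 12, 8.36 and 10.0 CPM at 7 d, 1.39 above 1 d (adjusted p = 0.022, edgeR), a call lost without library 2 or 3 of 1 d or library 1 or 3 of 7 d (adjusted p = 0.061 to 0.13, edgeR). Between genotypes at 1 d H2-Oa had the smallest p of this list, at 1.27 higher in Fgg γ390–396A mice (adjusted p = 0.86, edgeR).

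**Figure D5:**
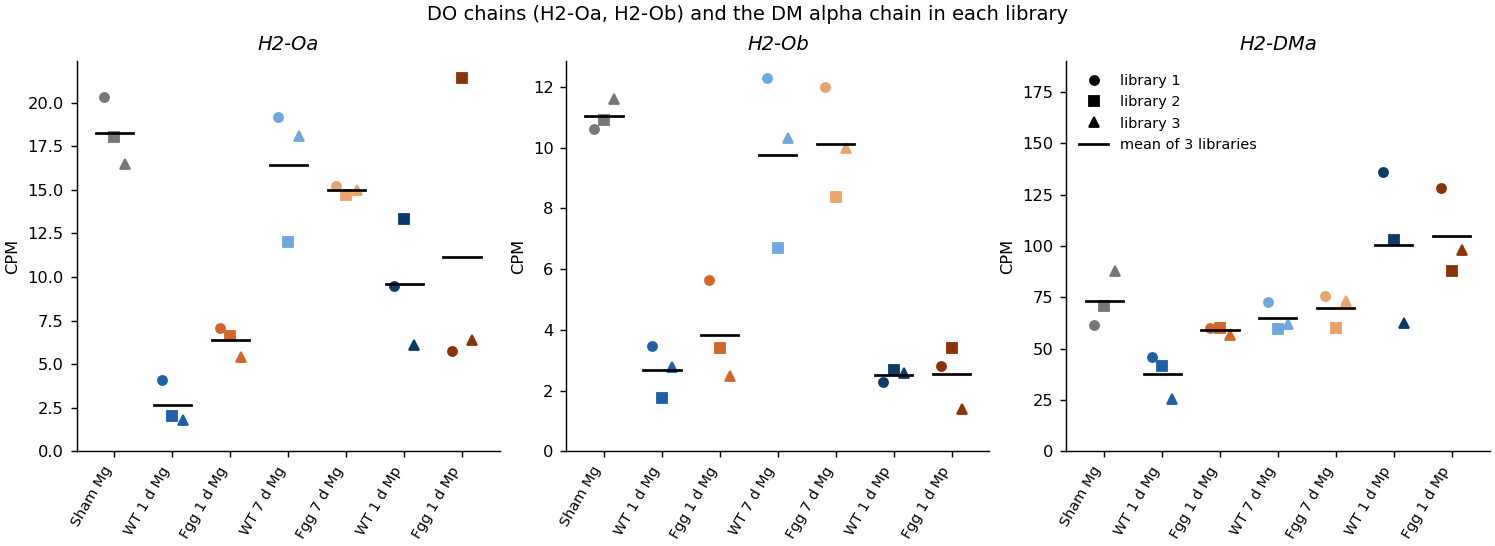
Levels in CPM of the H2-O genes H2-Oa and H2-Ob and of H2-DMa in each library, by group, with each point a library and each bar a group mean. H2-Oa and H2-Ob are below sham in all 6 microglia libraries of 1 d and near sham at 7 d.

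Other processing genes moved differently. Ifi30, the lysosomal thiol reductase that opens antigens, was 54.3, 59.6 and 114 CPM in sham and 202, 263 and 250 CPM in Fgg γ390–396A microglia at 1 d, a rise of 1.65 (SE 0.23, adjusted p = 8.9e-05, edgeR, 1.46 without sham library 1). It was 119, 123 and 104 CPM at 7 d, 1.05 below 1 d (adjusted p = 0.0083, edgeR), a call lost without library 2 of 1 d or library 3 of 7 d and with DESeq2 size factors (-0.94). In WT at 1 d Ifi30 was 217, 194 and 177 CPM, 1.37 above sham (adjusted p = 0.00025, edgeR) and under the bar. Ctsl, a cathepsin that degrades Cd74, was 589, 475 and 527 CPM in WT at 7 d against 198, 229 and 344 CPM in sham, a rise of 1.05 (SE 0.21, adjusted p = 0.0078, edgeR) that lay under the bar without sham library 1 or 2 or WT library 1 of 7 d (0.89 to 0.97). Counted over the list, 0 genes were higher and 2 lower in WT at 1 d against sham (median -0.59), and in Fgg γ390–396A mice 1 rose and 2 fell (median -0.33). From 1 d to 7 d 2 were higher in WT, and in Fgg γ390–396A mice H2-Ob was higher and Ifi30 lower (medians 0.56 and 0.06).

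Between cell types the list was divided, with 4 of 10 genes higher and 1 lower in WT infiltrating cells and 1 higher in Fgg γ390–396A ones (medians -0.02 and -0.41). H2-DMb2 was 18.1, 19.3 and 13 CPM in WT infiltrating cells against 3.93, 0.47 and 0.273 CPM in microglia (3.43, SE 0.68, adjusted p = 0.0014, edgeR), and differed by 3.08 in Fgg γ390–396A mice (adjusted p = 0.0021, edgeR). H2-DMb2 was thus higher in the same direction as its near-copy H2-DMb1. H2-Oa was 9.46, 13.3 and 6.09 CPM in WT infiltrating cells, which is above WT 1 d microglia (1.86, adjusted p = 0.0046, edgeR) and below all sham microglia. In Fgg γ390–396A mice it was 5.74, 21.4 and 6.38 CPM in infiltrating cells and 7.07, 6.62 and 5.42 CPM in 1 d microglia, overlapping and not called. H2-Ob was 2.27, 2.68 and 2.57 CPM in WT infiltrating cells, inside the range of WT microglia at 1 d. H2-Eb2, a further beta chain gene, was at 0 in all 3 WT microglia libraries of 1 d and at a mean of 0.481 CPM in WT infiltrating cells, at least 4.23-fold higher than 3 counts per library, and its call was lost when 5 of the 6 libraries were left out in turn (adjusted p = 0.059 to 0.092, edgeR). Ifi30 was 1.14 higher (adjusted p = 0.0015, edgeR) and Lgmn, the asparagine endopeptidase, 1.04 lower, at 531, 565 and 429 CPM against 910, 1240 and 990 CPM, and under the bar without library 2 of the microglia (-0.86) or library 3 of the infiltrating cells (-0.94), and with DESeq2 size factors (-0.98). Ctss, the cathepsin that makes the last cut of Cd74 in myeloid cells, was 1220 to 1670 CPM in WT infiltrating cells and 1230 to 1530 CPM in WT microglia of 1 d.

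The 7 genes for factors that bind class II promoters (Rfx5, Rfxap, Rfxank, Nfya, Nfyb, Nfyc and Creb1) gave few calls. None was called against sham at 1 d in either genotype (medians -0.43 and -0.37), and the smallest p was that of Creb1, at -0.71 in WT (adjusted p = 0.010, edgeR) and -0.58 in Fgg γ390–396A mice (adjusted p = 0.057, edgeR). From 1 d to 7 d in WT, Rfx5 was higher (1.15, adjusted p = 0.025, edgeR, and 0.057 to 0.18 without library 2 or 3 of 1 d or any 1 of 7 d) and Rfxap was lower (-1.62, SE 0.33, adjusted p = 0.0027, edgeR). Rfxap was 8.47, 18.7 and 9.72 CPM in WT microglia at 1 d and 3.97, 4.35 and 3.67 CPM at 7 d. Between cell types none was called in WT, where Nfyb had the smallest p (0.67, adjusted p = 0.10, edgeR), and Rfxap (1.37, adjusted p = 0.0046, edgeR) and Nfyc (1.02, adjusted p = 0.014, edgeR, and 0.052 to 0.063 without microglia library 1 or 3 or infiltrating library 1) were higher in infiltrating cells of Fgg γ390–396A mice. Rfx5 was 2.12 to 3.53 CPM in WT infiltrating cells, which overlapped the 3.86, 3.62 and 1.6 CPM of WT microglia at 1 d.

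Of 9 genes on the route from interferon gamma to Ciita, none was called in microglia at 1 d against sham (medians 0.06 in WT and -0.05 in Fgg γ390–396A mice). Ifngr1, a receptor chain, had the smallest p, at -1.33 in WT (adjusted p = 0.00013, edgeR) and -0.78 in Fgg γ390–396A mice (adjusted p = 0.018, edgeR), both under the bar of 1.5.

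Ifng itself was at 0 in every microglia library of sham and of Fgg γ390–396A mice, and 4 of the 21 libraries held any of it, the highest at 0.61 CPM. Jak2, a kinase of the receptor, was 34.1, 29.8 and 45.4 CPM in WT infiltrating cells and 8.78, 7.89 and 8.63 CPM in WT microglia, 2.11 higher (SE 0.21, adjusted p = 1.2e-06, edgeR), and 2.40 higher in Fgg γ390–396A mice (adjusted p = 2.7e-07, edgeR). Socs1, an inhibitor of that kinase, was 2.61 higher in infiltrating cells of Fgg γ390–396A mice (adjusted p = 0.047, edgeR), a call lost without any 1 library of those microglia or infiltrating library 2 or 3 (adjusted p = 0.091 to 0.14, edgeR).

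Over the 15 microglia libraries, 12191 genes with a mean of at least 1 CPM were ranked by how closely their log2(CPM + 1) followed the mean of the 7 genes. The 5 most alike were Mymk (Pearson r = 0.938), Gm11632 (0.923), Lilra5 (0.907), Hist1h2bf (0.904) and Ildr2 (0.897), given as a description over libraries that share groups and depth. Lilra5 averaged 7.43 CPM in sham, 2.56 and 3.77 CPM at 1 d in WT and Fgg γ390–396A mice, and 8.0 and 7.44 CPM at 7 d. It did not share the cell type difference, with 0.525 and 1.1 CPM in infiltrating cells. Of the 5, Hist1h2bf was the one with an infiltrating mean above that of sham microglia, 19.7 CPM in WT against 12.3 CPM.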

How the data were processed

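Gene-level expected counts were deposited by the authors, who had run nf-core/rnaseq with salmon against GRCm38 (the annotation is not given in the sources used here). Each gene's share of transcripts was scaled so that a library sums to its mapped reads, which divides out gene length, and libraries were not normalized to each other. Of 45706 gene identifiers, 56.8% held values that were not whole, and all were rounded. Symbols and coordinates came from GENCODE M21, which matched 45143.

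One fit over all 21 libraries, with 1 mean per group and no replicate block, was made in R 4.3.3 with edgeR 4.0.16 (TMM, glmQLFit, glmQLFTest, Benjamini-Hochberg over the 23815 genes with at least 5 counts). The common biological coefficient of variation was 0.643. Calls followed the study's thresholds: an adjusted p under 0.05 with a bar of 1.5 (1 d against sham) or 1, and an adjusted p under 0.1 with a bar of 1 between genotypes. On counts simulated for WT infiltrating cells against WT microglia (23233 genes, 200 changed by 2 on the log2 scale), 58.5% of the changed genes were recovered and 5 others called.

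Calls are given for all 7 genes in every comparison, and fitted values in some comparisons only for some of them. Of 3 pathway lists and 7 marker lists, all 83 genes, the 7 included, were matched, and called pathway genes are named, or else that with the smallest p, and a few listed genes are not reported here. The members and lists were chosen with earlier results of these data known. DESeq2 1.42.0, other normalizations, filters, a replicate block and leaving out libraries were alternatives. Pairing by replicate number was judged by correlation of the libraries' deviations from their group means, with a cutoff on the smallest r. It held only for genotypes in 1 d microglia (r = 0.41, 0.197 and 0.122). In WT, infiltrating cells against microglia gave r = 0.154, 0.13 and 0.027, beside at most 0.07 for libraries of unlike number. The labels do not say that same-numbered libraries share animals. Figures were drawn with matplotlib 3.10.9.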

Additional observations from a re-analysis of the deposited data

How the results depend on the processing

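The 7 genes called between infiltrating cells and microglia in WT, and the 6 in Fgg γ390–396A mice, were higher in every alternative, and no call among the 7 changed direction. From 1 d to 7 d in WT the 1 call became 2 with DESeq2 size factors, filterByExpr, no filter or a replicate block, 0 when the compared groups were fitted alone and 4 in DESeq2. Without a bar on size, 1 gene, H2-DMa, was called at 1 d against sham in WT. Leaving out libraries gave 0 to 2 calls at 1 d against sham in each genotype and 0 to 4 from 1 d to 7 d in each. Among these omissions 4 came only without library 1 of both 1 d groups together, the choice made after the values were seen. The added gene was then Cd74 in WT and, in Fgg γ390–396A mice, Ciita, whose counts in microglia were too low to measure its changes. The replicate block changed no other call of the 7 genes.

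Some differences that were not called changed sign. Those of Ciita were not all near 0 in the main fit, the largest being 0.70 from 1 d to 7 d in Fgg γ390–396A mice. For H2-DMb1 the 1 d difference of Fgg γ390–396A mice from sham was -0.056 with DESeq2 size factors and in DESeq2, and its genotype difference in infiltrating cells was 0.003 and 0.002 there, 0.01 with filterByExpr and 0.017 in the compared groups alone. For Ciita the WT difference from sham at 1 d was -0.077 with the replicate block. With single libraries left out, the 1 d genotype difference in microglia ran from -0.87 to 1.17 for H2-Aa, -0.51 to 1.03 for H2-Ab1, -0.91 to 1.00 for H2-Eb1, -0.42 to 0.081 for Cd74 and -1.98 to 1.79 for Ciita. Without library 1 of both genotypes together it was 0.08, 0.28 and 0.02 for the 3 chains. At 7 d it ran from -0.075 to 0.17 for H2-Eb1, -0.30 to 0.18 for H2-Ab1 and -0.78 to 0.78 for Ciita, and in infiltrating cells from -0.19 to 0.34 for H2-DMa and -0.23 to 0.18 for H2-DMb1. Against sham, Ciita ran from -1.24 to 0.58 and Cd74 from -0.39 to 0.21 in WT at 1 d, Ciita from -1.84 to 1.05 and Cd74 from -0.52 to 0.034 in Fgg γ390–396A mice at 1 d, H2-DMb1 from -0.13 to 0.069 in WT at 7 d and H2-DMa from -0.19 to 0.073 in Fgg γ390–396A mice at 7 d. From 1 d to 7 d, H2-DMb1 ran from -0.018 to 0.22 in WT and Ciita from -0.42 to 3.08 in Fgg γ390–396A mice. The cause was not tested. Over all genes DESeq2 called 104, 80 and 841 genotype differences in 1 d microglia, 7 d microglia and infiltrating cells where edgeR called 13, 9 and 108, and 347 and 825 genes at 7 d against sham in Fgg γ390–396A and WT mice where edgeR called 158 and 481. The block left 66 of the genotype calls in infiltrating cells.

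With 3 libraries per group, genotype intervals of the chains spanned about 2 on the log2 scale, and Ciita in microglia rested on 1 to 42 counts per library.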
